A study of Homo sapiens with 4 samples.

Results

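H3K27Ac peaks that were present only after DHT were followed in LNCaP, a human prostate cancer line that responds to androgen. A member was a DHT peak with a height of 29 tags or more that shared no base with any vehicle peak of any height, so the members were chosen on the heights and positions of the very libraries they describe. The rule found 716 such DHT-only peaks among the 25283 DHT peaks of 29 tags or more (2.83%) and the 60752 DHT peaks of any height. The other 24567 tall DHT peaks, called shared peaks here, met at least 1 vehicle peak.

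The study annotated prostate cancer risk loci and made ChIP-seq libraries of LNCaP, in which DNA bound by a protein or a modified histone is recovered with an antibody and sequenced. Vehicle cells (passage 20) were kept in serum stripped with charcoal, which removes steroids, and given ethanol for 4 h. DHT cells (passage 20) were kept in the same serum and given 10 nM dihydrotestosterone for 4 h. TCF7L2 was precipitated from cells of passage 15 in serum that was not stripped, and an input library of passage 15 was not analysed here. Each of these was 1 library with no repeat culture, no test between conditions was possible, and the intervals given cover counting error only. Peak height is the pileup of tags at a peak, and the number of reads per library was not in the lists. The lowest vehicle peak had 9 tags and the lowest DHT peak 10 tags, so the absence of a vehicle peak means that none was called down to that height, not that the mark was absent. The labelled cell type was checked at promoters: 15 of 16 luminal prostate genes, among them HOXB13, FOXA1 and SPDEF, had a DHT peak of 29 tags or more there, against 0 of 6 basal, 0 of 8 leukocyte and 0 of 6 neuroendocrine genes, 1 of 8 stromal genes (COL1A1) and 2 of 4 endothelial genes (VWF and CDH5).

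Acetylation of histone H3 at lysine 27 marks active promoters and enhancers, the stretches of DNA from which genes are switched on near and far. Dihydrotestosterone, the most potent natural androgen, binds its nuclear receptor, which enters the nucleus and binds DNA as a dimer at an inverted repeat called the androgen response element. In prostate cells the receptor often binds beside FOXA1, a forkhead factor that opens chromatin, and recruits acetyltransferases that place the H3K27 mark.

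The sequences shown first are those of the tallest DHT-only peaks whose central 1000 bp held a near-perfect androgen response element, because this is the sequence that the receptor of DHT itself recognises. The element was written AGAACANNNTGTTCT, which reads the same on both strands and has 12 fixed letters around a spacer of 3 bases. At most 1 fixed letter differed in 25 DHT-only peaks, and 6 of the tallest of these are given from GRCh37 (hg19), plus strand. Capitals mark the element, and a peak is named after the protein-coding gene with the nearest start.
SLC38A4 peak, chr12:47186947-47186976: gatgttcAGAACACTCTGTTCTgcaaacag
MAF peak, chr16:79843145-79843259: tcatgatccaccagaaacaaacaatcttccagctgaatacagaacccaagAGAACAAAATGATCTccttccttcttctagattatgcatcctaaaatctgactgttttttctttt
IMMP2L peak, chr7:110394845-110394959: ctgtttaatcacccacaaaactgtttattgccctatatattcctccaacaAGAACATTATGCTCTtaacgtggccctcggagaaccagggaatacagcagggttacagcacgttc
TLN2 peak, chr15:63080506-63080620: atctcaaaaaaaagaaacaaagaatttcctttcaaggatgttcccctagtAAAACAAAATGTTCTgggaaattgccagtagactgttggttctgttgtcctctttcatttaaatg
KLHL31 peak, chr6:53560496-53560610: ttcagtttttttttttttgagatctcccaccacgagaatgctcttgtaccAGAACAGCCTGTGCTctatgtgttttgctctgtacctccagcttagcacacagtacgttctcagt
CFAP47 peak, chrX:36161334-36161448: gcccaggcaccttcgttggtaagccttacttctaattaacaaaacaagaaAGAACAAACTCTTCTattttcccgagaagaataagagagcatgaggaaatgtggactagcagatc

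The SLC38A4 peak (chr12:47185890-47188049, 56 tags) lay in the body of SLC38A4, an amino acid transporter gene. It was the single DHT-only peak with no fixed letter changed, and its element lay 8 bp left of the peak's midpoint. Its window meets an annotated UTR, so 30 bases are shown. The other 5 peaks had 54 tags (MAF), 53 tags (IMMP2L), 50 tags (TLN2), 48 tags (KLHL31) and 48 tags (CFAP47), and their elements differed from the written form by T12A, T12C, G2A, T13G and G11C, in that order, counted from 1 at the left end with the written letter first. MAF encodes a transcription factor of the AP-1 superfamily and lay 208 kb from its peak. The peaks in IMMP2L, a mitochondrial peptidase gene, and TLN2, which encodes a talin that links integrins to actin, were intronic.

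Elements with 2 fixed letters changed stood in DHT-only peaks at 5 genes of the list of androgen-induced genes, the only ones of the 8 with a DHT-only peak that had such an element. They are shown in the same way because their genes are known targets of the receptor. Of all 716 DHT-only peaks, 25.1% held an element with at most 2 letters changed. FKBP5, EAF2, IGF1R and TMPRSS2 had 2 DHT-only peaks each, so the 5 of 8 is not read as particular to these genes.
FKBP5 peak, chr6:35578798-35578912: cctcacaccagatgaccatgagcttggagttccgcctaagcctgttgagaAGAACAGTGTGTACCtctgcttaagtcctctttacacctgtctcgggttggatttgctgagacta
TRPM8 peak, chr2:234929338-234929452: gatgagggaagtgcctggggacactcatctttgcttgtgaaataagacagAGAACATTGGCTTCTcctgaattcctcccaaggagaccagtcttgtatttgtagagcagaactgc
STEAP4 peak, chr7:87933037-87933151: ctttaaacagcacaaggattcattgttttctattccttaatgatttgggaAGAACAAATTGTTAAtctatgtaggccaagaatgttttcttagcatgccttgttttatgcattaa
IGF1R peak, chr15:99343201-99343315: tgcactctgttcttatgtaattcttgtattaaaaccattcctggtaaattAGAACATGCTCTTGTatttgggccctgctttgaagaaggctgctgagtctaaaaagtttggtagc
TMPRSS2 peak, chr21:42952258-42952372: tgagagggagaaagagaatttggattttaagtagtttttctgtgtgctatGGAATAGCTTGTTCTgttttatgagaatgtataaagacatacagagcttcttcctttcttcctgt

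FKBP5 encodes a co-chaperone of steroid receptors, TRPM8 a cold-sensing ion channel, STEAP4 a metalloreductase, IGF1R the receptor of insulin-like growth factor 1, and TMPRSS2 a membrane serine protease whose promoter is fused to ERG in many prostate tumours. The TMPRSS2 element lay 11 bp from the midpoint of its peak, the FKBP5 element 191 bp, and those at IGF1R (374 bp), TRPM8 (386 bp) and STEAP4 (430 bp) nearer to the border of the window. The changed letters were T13A and T15C at FKBP5, T10G and G11C at TRPM8, C14A and T15A at STEAP4, G11C and C14G at IGF1R, and A1G and C5T at TMPRSS2.

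The heights of the DHT-only peaks reached from 29 to 104 tags, with a median of 36 (quartiles 32 and 44). Of the 716 peaks, 442 had 29 to 39 tags, 239 had 40 to 59 tags and 35 had 60 or more. They were narrower than shared peaks, with a median width of 2099 bp against 2879 bp, and at 60 tags or more the medians were 2549 bp and 3959 bp. The tallest had rank 2203 in the DHT list. Height and width were part of the rule or of the same list, so these values describe the members and support nothing further.

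The share of DHT peaks without any vehicle peak was 5.91% at 29 to 39 tags, 2.92% at 40 to 59 tags, 0.669% at 60 to 79 tags and 0.0974% (5 of 5136) at 80 tags or more. Turned around, the rule found 3 of 22422 vehicle peaks of 29 tags or more without a DHT peak (0.0134%). From 40 tags up, 274 of 17810 DHT peaks and 0 of 15498 vehicle peaks had no counterpart, and the latter allows a share of up to 0.0248% (upper end of the 95% Wilson interval). Whether both libraries had the same depth is unknown, and its part in this asymmetry was not tested. At the lowest heights (9 to 14 tags) the lists were closer, with 40.9% of DHT peaks and 34.8% of vehicle peaks unmatched.

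**Figure D1:**
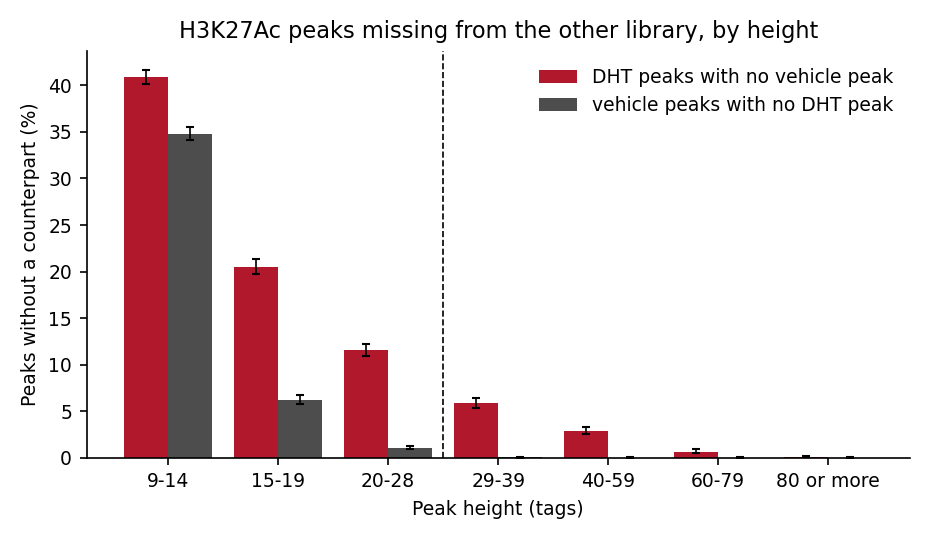
Percent of H3K27Ac peaks of each library (red, DHT; grey, vehicle) that share no base with any peak of the other library, by peak height in tags; bars are shares with 95% Wilson intervals, and the dashed line marks the height of 29 tags. To the right of the line the DHT bars are 5.91%, 2.92%, 0.669% and 0.0974%, and the vehicle bars are at or near 0.

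Just inside the rule were 69 DHT-only peaks of exactly 29 tags, the first of them in genome order nearest to VPS13D, RABGAP1L, RGSL1 and DENND1B. Just outside were 82 peaks of 28 tags without a vehicle peak, the first nearest to NPHP4, H3-7, MYOC and ZNF648. On the side of overlap, no shared peak met vehicle peaks over 30 bases or fewer, and 18 met them over 300 bases or fewer. The least overlaps were 60 bases near TUBA3C (41 tags) and 120 bases near MTMR9 (58 tags). The closest member, at the promoter of AP2A1, was 389 bp wide with 53 tags and directly adjoined a vehicle peak of 93 tags, so it was apart by the caller's borders alone. A further 233 shared DHT peaks met vehicle peaks of no more than 9 or 10 tags.

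Most DHT-only peaks stood well clear of vehicle peaks. The median distance to the nearest vehicle peak was 14.2 kb (quartiles 5.58 and 34.5 kb), 19 peaks were within 1 kb of one, and 53 were over 100 kb away. The nearest vehicle peak had a median of 19 tags (quartiles 13 and 33.25). Where the nearest shared DHT peak lay within 50 kb of a DHT-only peak, its ratio of DHT to vehicle height had a median of 1.31 over 568 such neighbours, against 1.07 over all 50368 shared DHT peaks of any height, and 39.8% of the neighbours against 14.3% of all had a ratio of 1.5 or more. These ratios come from the same libraries as the rule and are given as a description.

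**Figure D2:**
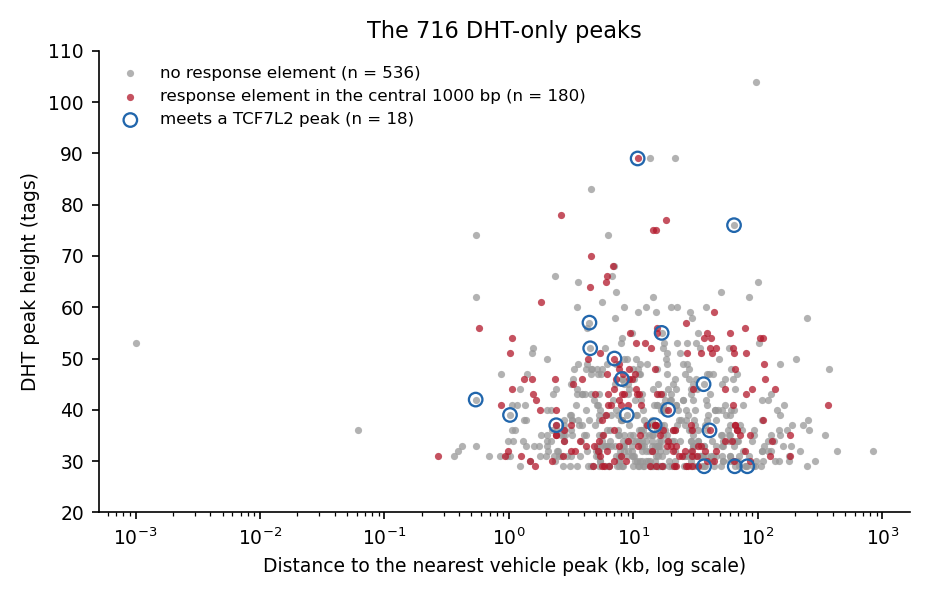
The 716 DHT-only peaks by distance to the nearest vehicle peak (kb, log scale) and DHT height (tags); red points hold a response element in their central 1000 bp, grey points do not, and blue rings mark peaks that meet a TCF7L2 peak. The points gather between 29 and 60 tags and around a median distance of 14.2 kb, and peaks that hold an element reach from 29 to 89 tags.

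The tallest DHT-only peak had 104 tags (chr10:1361610-1364669) and lay in an intron of ADARB2, a brain-expressed relative of the RNA-editing adenosine deaminases, 97.2 kb from the nearest vehicle peak. Next came 3 peaks of 89 tags, between genes 24.95 kb from ACBD6, over the promoter of HERC4 (a ubiquitin ligase), and 4.99 kb from MYBL1, a transcription factor of the MYB family. A peak of 83 tags lay in an intron of C2orf76. A peak of 78 tags had FHIT, a tumour suppressor gene, as the nearest start at a distance of 474 kb. Promoter peaks stood at TMEM100 (77 tags), NEBL (76 tags), which encodes the actin-binding protein nebulette, and LRRFIP2 (74 tags). The others of the 20 tallest were nearest to PRR16 and SRFBP1 (75 tags each), IQUB (74 tags), PMAIP1 (70 tags), which encodes the pro-apoptotic protein NOXA, RIOK2 and ALDH8A1 (68 tags each), INSC, CUX2 and UGT2B28 (66 tags each), and MMRN2 and TMPO (65 tags each). In 9 of the 20 the nearest start was over 50 kb away, so the names mark positions and not regulated genes. The element was found in 9 of the 20, at MYBL1, FHIT, TMEM100, PRR16, SRFBP1, PMAIP1, RIOK2, INSC and MMRN2, in each with 2 letters changed. With the same tolerance the share was 25.1% over all 716 DHT-only peaks and 31.4% (11 of 35, 18.6 to 48.0%) at 60 tags or more.

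DHT-only peaks were mostly away from promoters. A promoter, taken as 1000 bp upstream to 100 bp downstream of a protein-coding start, was met by 40 of 716 DHT-only peaks (5.59%, 95% Wilson interval 4.13 to 7.52%) and by 35.5% of shared peaks (34.9 to 36.1%). A place between genes was held by 50.8% of DHT-only peaks and 27.9% of shared peaks, and an intron by 33.8% and 26.96%. Gene bodies with an exon in the peak held 9.78% and 9.64%. The difference in promoter share was seen at each height, with 5.43% against 29.3% at 29 to 39 tags, 5.02% against 35.9% at 40 to 59 tags, and 11.4% (4 of 35) against 39.7% at 60 tags or more. The nearest start was at a median of 31.6 kb from DHT-only peaks and 22.9 kb from shared peaks that met no promoter. A promoter covered along its whole length by a vehicle peak could not be met by a DHT-only peak. These shares are therefore not independent of the rule and are given as a description. The part that the unequal widths had in them was not tested.

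**Figure D3:**
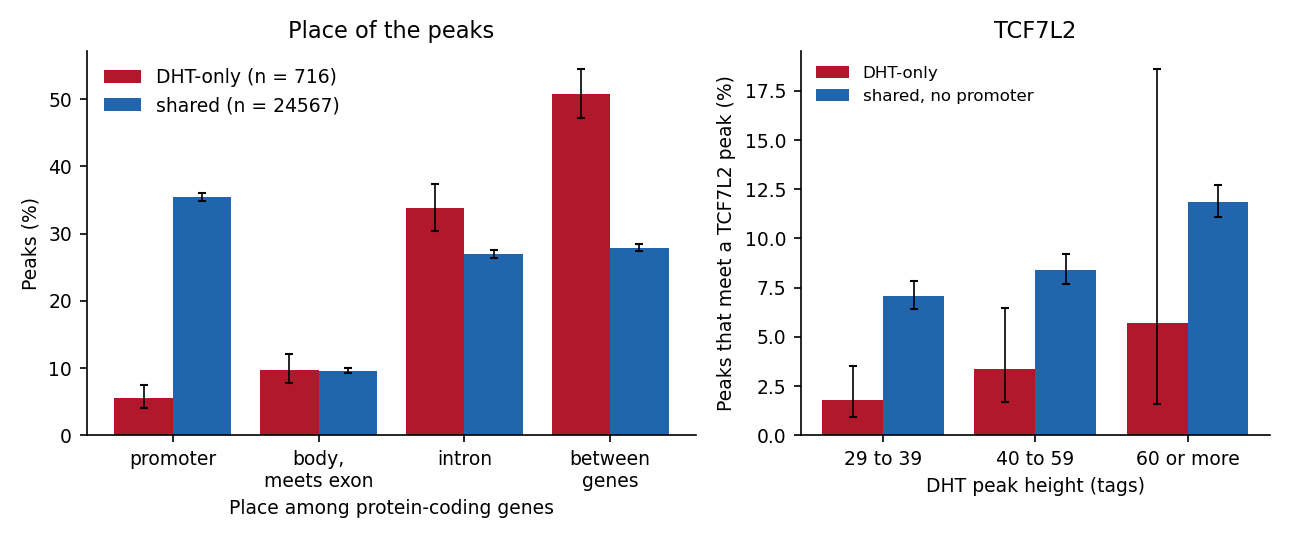
Left, percent of 716 DHT-only (red) and 24567 shared (blue) peaks over a promoter, in a gene body with an exon, in an intron or between genes; right, percent of DHT-only peaks and of shared peaks away from promoters that meet a TCF7L2 peak, by DHT height in tags. Bars carry 95% Wilson intervals, and DHT-only peaks are at 5.59% for promoters and 50.8% between genes.

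The central sequence of the DHT-only peaks was poorer in G and C than that of shared peaks. Over the 1000 bp around the midpoint the median GC content was 38.2%, against 42.9% in all shared peaks and 39.9% in shared peaks away from promoters. More than 30 CpG dinucleotides in that window, as in CpG islands, were found in 2 of 716 DHT-only peaks (0.279%), in 24.8% of shared peaks and in 4.37% of shared peaks away from promoters.

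The androgen response element with at most 2 of its 12 fixed letters changed was found in the central 1000 bp of 180 of 716 DHT-only peaks (25.1%, 22.1 to 28.4%) and of 2028 of 24567 shared peaks (8.25%, 7.92 to 8.61%). Away from promoters the shares were 25.9% and 10.0%. A reordered element of the same letters, ACAAGANNNTCTTGT, was found in 7.96% of DHT-only peaks and 5.57% of shared peaks. With at most 1 letter changed, the element stood in 3.49% (2.38 to 5.10%) of DHT-only peaks and 0.851% (0.743 to 0.974%) of shared peaks, and with none changed in 1 and 17 peaks. The share among DHT-only peaks was 20.8% at 29 to 39 tags, 32.2% at 40 to 59 tags and 31.4% (18.6 to 48.0%) at 60 tags or more. In shared peaks away from promoters it was 8.83%, 9.99% and 11.05% in the same classes. A match is a description of these letters and not proof of a bound site, and no receptor binding was measured in these libraries.

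The difference was largest at the spacing of the response element. With a spacer of 3 bases, 25.9% of DHT-only peaks away from promoters held the inverted pair at this tolerance. With 0, 1, 2, 4, 5, 6, 7 or 8 bases between the half-sites the share lay between 7.25% (4 bases) and 13.3% (0 bases). In shared peaks away from promoters the shares lay between 7.96% and 8.98% at those 8 spacings and reached 10.0% at 3 bases.

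Among shared peaks away from promoters, the share with an element was higher where the DHT height exceeded the vehicle height by more. It was 5.73% at a ratio under 0.8, 7.19% from 0.8 to 1, 9.48% from 1 to 1.5, 13.01% from 1.5 to 2, 16.5% from 2 to 3, and 21.1% (18.5 to 24.0%) at 3 or more, and the interval of the last overlaps that of the DHT-only peaks (22.7 to 29.3%). The reordered element was at 6.44% in the first of these classes and 8.79% in the last. The DHT-only peaks had the highest share of these 7 classes, next to the shared peaks of the largest ratios.

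**Figure D4:**
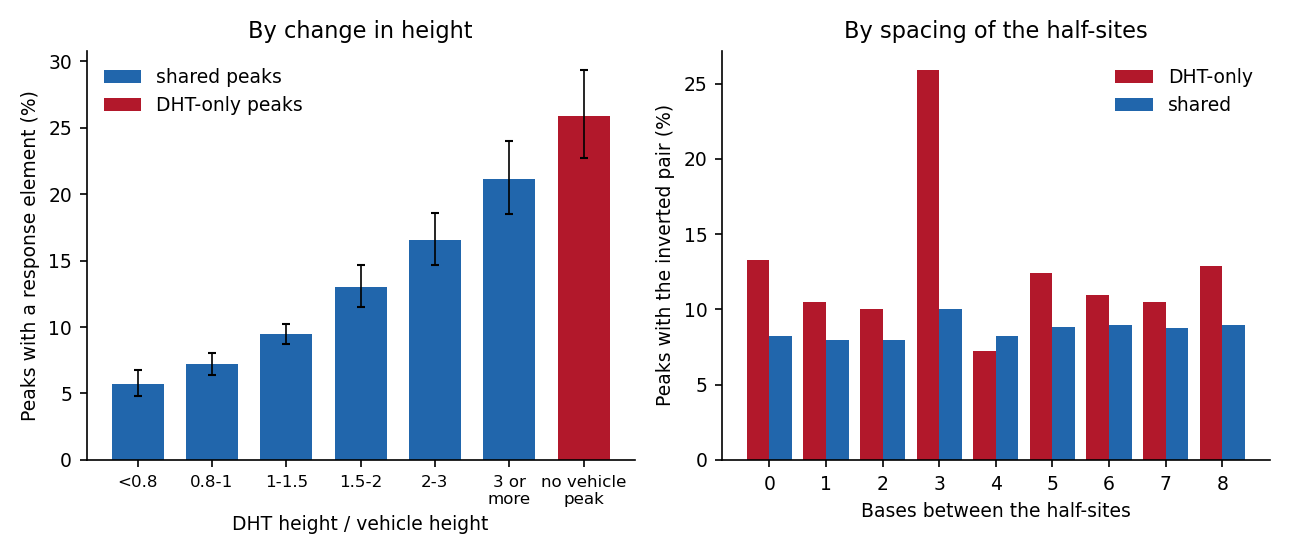
Left, percent of peaks away from promoters with a response element in the central 1000 bp, for shared peaks by ratio of DHT to vehicle height (blue) and for DHT-only peaks (red), with 95% Wilson intervals; right, the same percent for inverted half-sites 0 to 8 bases apart. The left bars run from 5.73% to 25.9%, and on the right a spacer of 3 bases gives the tallest DHT-only bar.

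The elements lay near the middle of the DHT-only peaks. Within 200 bp of the midpoint there were 0.461 elements per kb of sequence (132 sites), against 0.0809 per kb beyond 1000 bp, a ratio of 5.70. In shared peaks away from promoters the values were 0.126 and 0.0783 per kb, a ratio of 1.60. The reordered element had ratios of 1.23 and 1.13. Of the 180 DHT-only peaks with an element, 141 (78.3%) had their best one within 250 bp of the midpoint, at a median of 125.5 bp, while in shared peaks away from promoters 57.1% did, at a median of 211 bp. A second element was present in 16 of the 180. Shared peaks were the wider, and the part of width in these positions and in the shares with an element was not tested.

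**Figure D5:**
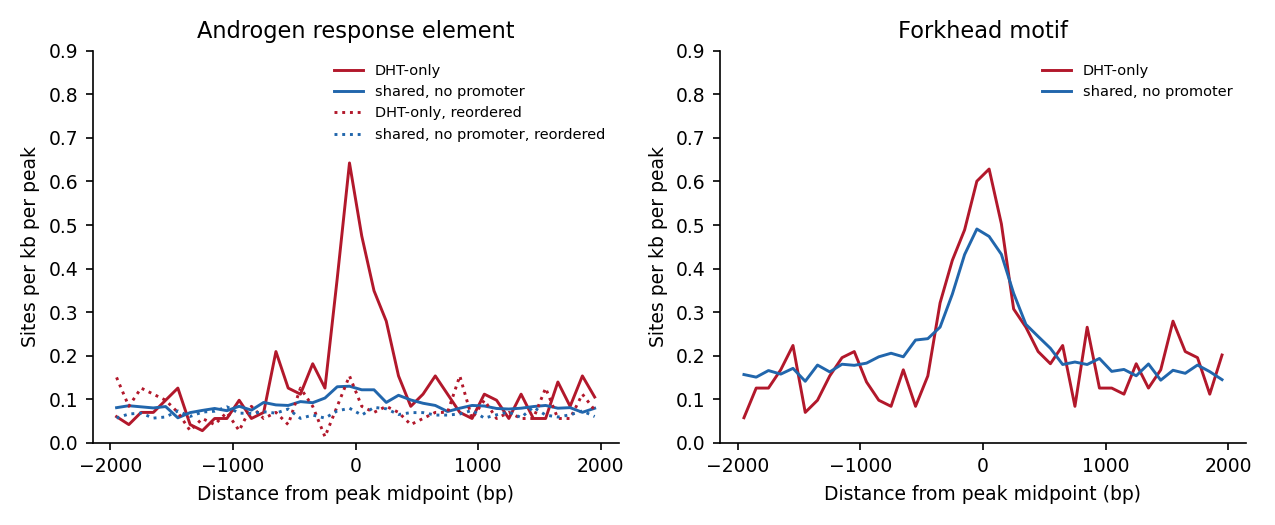
Sites per kb of sequence in bins of 100 bp by distance from the peak midpoint, for the response element (left, solid), its reordered form (left, dotted) and the forkhead motif (right), in DHT-only peaks (red) and shared peaks away from promoters (blue). The element rises to 0.642 per kb at the midpoint of DHT-only peaks and 0.130 per kb in shared peaks, while the forkhead motif peaks in both.

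In the elements of DHT-only peaks the fourth letter of the half-site was kept most often, in 91.1% of 360 half-sites, and the third least often, in 77.2%. In shared peaks away from promoters these places were kept in 88.8% and 83.3% of 3174 half-sites. The C at the fifth place was kept in 86.4% and 79.3%.

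Among single motifs the half-site AGAACA was found in 77.0% of DHT-only peaks and 62.0% of shared peaks away from promoters, and the reordered half-site ACAAGA in 57.1% and 49.8%. Near the midpoint (within 250 bp) AGAACA occurred 1.78 times per kb in DHT-only peaks, a ratio of 2.03 to the flanks 1500 to 2000 bp away, against 1.05 per kb and a ratio of 1.22 in shared peaks away from promoters. The forkhead motif TGTTTAC was concentrated at the midpoint of both kinds, at 0.517 and 0.442 per kb with ratios of 3.04 and 2.73. TGTTTGC, a second forkhead form, gave ratios of 2.77 and 2.38. AGATAA, the motif of GATA factors, gave 1.25 and 1.17, and TGANTCA, that of AP-1, 0.965 and 1.39. Motifs common in promoters were sparse: GGGCGG, bound by SP and KLF factors, stood in 6.01% of DHT-only peaks and 13.5% of shared peaks away from promoters, and the ETS core CCGGAA in 5.73% and 8.15%. CTTTGAT, the TCF and LEF motif, was found in 18.3% and 16.0%, with intervals that overlap (15.6 to 21.3% and 15.5 to 16.6%). All motifs were counted on both strands, and AGAACA is itself contained in the response element.

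TCF7L2, a transcription factor of the Wnt pathway that binds DNA with beta-catenin, was seldom found in the DHT-only peaks. A TCF7L2 peak was met by 18 of 716 (2.51%, 1.60 to 3.94%), against 16.7% of shared peaks (16.3 to 17.2%) and 9.25% of shared peaks away from promoters. By height, the shares were 1.81% against 7.08% at 29 to 39 tags, 3.35% against 8.404% at 40 to 59 tags, and 5.71% (2 of 35, 1.58 to 18.6%) against 11.9% at 60 tags or more, with the shared peaks away from promoters second. By width they were 0.755% against 7.15% under 2000 bp and 3.71% against 7.70% from 2000 to 3000 bp, and 2.13% (1 of 47) against 11.9% above, so DHT-only peaks had the lower share in each class. Shared peaks of at least 3 times the vehicle height away from promoters met a TCF7L2 peak in 4.10% (2.96 to 5.65%), an interval that overlaps that of the DHT-only peaks. TCF7L2 was measured in cells of another passage and in serum that was not stripped, so serum, passage and culture cannot be told apart from the hormone.

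The 18 DHT-only peaks with TCF7L2 included strong TCF7L2 peaks, with a median height of 52 tags against 31 tags in shared peaks. Away from promoters these medians were closer, at 49 tags in 17 DHT-only peaks and 39 tags in shared peaks. The tallest were 192 tags in an intron of CAV2, a caveolin gene, 179 tags over the NEBL promoter, 169 tags in the JAZF1 intron, 146 tags near MYBL1, 123 tags near ASB1 and 115 tags in SYTL3. The H3K27Ac heights after DHT at these 6 places were 29, 76, 42, 89, 29 and 36 tags. A response element was found in 5 of the 18, among them MYBL1, IGF1R and SYTL3, beside 180 of all 716 DHT-only peaks (25.1%). A TCF7L2 peak was met by 2.78% (1.19 to 6.34%) of DHT-only peaks with an element and 2.43% (1.42 to 4.11%) without.

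Of 20175 protein-coding genes, 743 (3.68%) had a DHT-only peak in the gene or within 50 kb, and 335 had one in the body. Of 54 androgen-induced genes, 8 did (14.8%, 7.70 to 26.6%). All 54 had a DHT peak of some height in that range and 53 a vehicle peak. At promoters, 43 of the 54 met a DHT peak and 34 a vehicle peak of 29 tags or more. A DHT-only peak was met at 0 of these promoters, beside 39 of 20149 protein-coding genes, so the 0 is not particular to this list. For the DHT and vehicle peaks, the shares over all protein-coding genes were not counted. The DHT list held 25283 peaks of 29 tags or more and the vehicle list 22422. The 43 against 34 is therefore not read as particular to androgen-induced genes. KLK3 and KLK2, which encode prostate-specific antigen and its neighbouring kallikrein and were named for being well-known targets, had no DHT-only peak, and the tallest peak within 50 kb of either was 180 tags with DHT and 97 tags with vehicle.

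FKBP5 had DHT-only peaks of 58 tags (chr6:35557380-35560739) and 43 tags (chr6:35577300-35580029), both in its body, 7.08 and 4.92 kb from a vehicle peak. TRPM8 had 1 of 55 tags in its body, 60.2 kb from any vehicle peak. STEAP4 had 1 of 46 tags in an intron. EAF2, which encodes a partner of the elongation factor ELL, had peaks of 42 and 34 tags nearby, and these lay at the SLC15A2 promoter and in an intron of IQCB1. IGF1R had peaks of 37 and 30 tags in an intron, TMPRSS2 had 35 and 32 tags between genes, and ZBTB16, a zinc finger gene, had 1 of 35 tags.

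The tallest peaks around these genes were shared ones. Within 50 kb the tallest DHT and vehicle peaks were 134 and 73 tags at FKBP5, 153 and 55 tags at IGF1R, 125 and 106 tags at TMPRSS2 and 189 and 121 tags at ZBTB16. The DHT-only peaks at these 4 genes had 30 to 58 tags. At EAF2 the peak of 42 tags was itself the tallest DHT peak, beside 27 tags with vehicle.

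The other lists are read beside the 3.68% of all protein-coding genes, and the small lists have wide intervals. Of 20 androgen-repressed genes 1 had a DHT-only peak (5%, 0.888 to 23.6%), UGT2B28, whose enzyme attaches glucuronic acid to steroids. Its peak had 66 tags and met an exon, and since the UGT2B genes are near-identical copies, the position of reads there is uncertain. Of 18 genes that respond to steroids in other tissues 3 had one, FKBP5 and ZBTB16 again and GLUL, the glutamine synthetase gene (29 tags). Of 10 polyamine genes, 2 had one, SMS, the spermine synthase gene (38 and 30 tags), and AMD1, which encodes the decarboxylase that feeds spermine synthesis (33 tags). Of 22 lipid synthesis genes, 2 did: ELOVL7, a fatty acid elongase gene (35 tags), and FASN, the fatty acid synthase gene (30 tags). The FASN peak lay over a promoter of CCDC57 and held an element with 1 letter changed, T15C. The GLUL peak lay in an intron of RGSL1, and the AMD1 peak lay between genes, nearest to the start of GTF3C6.

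Of 55 genes at prostate cancer risk loci, 9 had a DHT-only peak (16.4%, 8.86 to 28.3%), beside 3.68% of all genes, among them PDLIM5 (56 tags), ZNF652 (53 tags), JAZF1 (42 tags), PKHD1 (41 tags), KRT8 (40 tags), NCOA4 (36 tags), RFX6 (33 tags) and VGLL3 (29 tags). The PDLIM5 and ZNF652 peaks lay between genes, with the nearest starts at BMPR1B and PHB1. Long genes cover more sequence, and the part of gene length in the counts of this and the other lists was not tested. The NCOA4 peaks, 36 and 29 tags nearest to TIMM23, lie in a region with near-identical copies and are uncertain. Distances to the nearest vehicle peak ran from 0.541 kb at a JAZF1 peak of 42 tags to 162 kb at PKHD1 and 251 kb at VGLL3. The vehicle peak beside that JAZF1 peak had 45 tags. Of 18 Wnt targets 1 did (5.56%, 0.988 to 25.8%), TNFRSF19 (64 tags), whose peak was nearest to MIPEP. Of 16 luminal genes 4 did, among them TMPRSS2 and, by 1 peak of 40 tags, KRT8 and KRT18. Of 6 basal genes 1 did, KRT14, whose peak of 34 tags lay between genes, nearest to the start of KRT16. The counts were 0 of 14 secretory and endoplasmic reticulum genes, 0 of 12 glycosylation genes, 0 of 12 cell cycle genes, 0 of 14 housekeeping genes, and 0 of 8 stromal, 0 of 8 leukocyte, 0 of 4 endothelial and 0 of 6 neuroendocrine genes. These counts of 0 allow shares of up to 21.5% for lists of 14 genes, 24.2% for 12, 32.4% for 8, 39.03% for 6 and 49.0% for 4 (upper ends of the 95% Wilson intervals), so they were not distinguishable from the share of all genes.

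Another DHT-only peak lay within 50 kb of 95 of the 716 (13.3%) and within 10 kb of 36 (5.03%). How this compares with evenly spread peaks was not tested. Of the 335 genes with one in the body, 25 had 2 or more and 4 had 3 or more. PTPRM, a receptor tyrosine phosphatase gene of 840 kb, held 5 (46, 37, 33, 40 and 37 tags). ZNF385D, a zinc finger gene of 961 kb, held 4 (30, 37, 48 and 55 tags). JAZF1, a zinc finger gene of 350 kb at a risk locus, held 3 (42, 36 and 42 tags), which together spanned 48.1 kb. CPQ, a carboxypeptidase gene, held 3 (31, 31 and 30 tags). The others of the 10 genes with most were NEBL (40 and 76 tags), CUX2 (66 and 48 tags), CLNK (43 and 60 tags), FKBP5, CCDC91 (55 and 32 tags) and the gene ENSG00000275163 (52 and 34 tags). All 10 are long genes, of 155 to 961 kb, and the part of length in their counts was not tested. Runs of at least 3 in which each was within 50 kb of the next were found at JAZF1, at CPQ and at chr3:84149340-84228539 (37, 36 and 30 tags).

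Every chromosome held some. The share of tall DHT peaks that were DHT-only ran from 0.373% on chromosome 19 (3 of 804) and 1.04% on chromosome 16 (9 of 867) to 4.14% on chromosome 3 (71 of 1714) and 4.57% on chromosome 21 (15 of 328).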

How the data were processed

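LNCaP ChIP-seq peak lists were analysed for H3K27Ac after vehicle, H3K27Ac after DHT and TCF7L2. By the study's methods, H3K27Ac reads were aligned to hg19 with Bowtie 2 and TCF7L2 reads with ELAND, and peaks were called with Sole-search. Each library has its own deposited list. The submitters' processing notes name CASAVA 1.8.2, Bowtie2 and BWA. The unit the authors deposited is signal (peak height in whole tags). Scaling to reads is not given in the sources used here, so depth is unknown. Serum for TCF7L2 was 5% in the methods and 10% in the labels. Peak borders lie on a grid of 30 bp.

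Overlap was at least 1 shared base, distances ran between borders, and shares carry 95% Wilson intervals. Genes were those of GENCODE release 44 mapped to GRCh37 (20175 protein-coding). Of 272 listed symbols 270 were matched, 3 through older symbols. Genes were named where nearest to the 20 tallest members, among the 10 with most members, in a list with a member within 50 kb, or at the borders of the rule, and CAV2, ASB1, SYTL3, KLK2 and KLK3 after their values were seen. Sequences are those of the tallest members off chromosome 8 with at most 1 letter changed, and of the androgen-induced genes, the latter chosen after their values were seen. Some items of the lists are counted but not reported by name here. Members and lists were chosen with earlier results of these data known. Overlap and motif code was tested on simulated data. Alternatives covered height, overlap, motif, window, TCF7L2 peaks, promoters and gene surroundings. Python 3.11.15, numpy 2.4.6, pandas 2.3.3 and matplotlib 3.10.9 were used.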

Additional observations from a re-analysis of the deposited data

How the results depend on the processing

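Of 37 alternatives, 11 stayed within 1.5 times a count or inside the interval of a share, and 26 did not. The number of DHT-only peaks was 274 at 40 tags or more, 35 at 60 tags or more and 1364 when peaks covered by vehicle peaks over less than 50% of their bases were counted too, and it stayed between 688 and 803 under the other alternatives. The share of DHT peaks without a vehicle peak was 1.54% and 0.364% at 40 and 60 tags or more. The share of vehicle peaks without a DHT peak was 0.0480% at 26 tags or more and 0% at 40. With a response element stood 3.49% of DHT-only and 0.851% of shared peaks with at most 1 letter changed, 0.140% and 0.0692% with none, 33.0% and 14.7% in 2000 bp, and 33.8% and 22.8% over the whole peak, where shared peaks are the wider. At 40 tags or more 32.1% of DHT-only peaks held one. Among shared peaks, 11.9% met one of the 15000 tallest TCF7L2 peaks, and at 40 tags or more 18.6% met a TCF7L2 peak and 38.0% a promoter. Within 2000 bp of a start lay 8.24% of DHT-only and 39.1% of shared peaks. Androgen-induced genes with a DHT-only peak numbered 5 within 10 kb, 14 within 100 kb and 4 at 40 tags or more, beside 2.08% and 5.95% of all genes within 10 and 100 kb. DHT-only peaks kept the higher share of elements and the lower share of TCF7L2 peaks and promoters in each alternative run on both kinds, except that with no letter changed the element stood in 1 DHT-only peak and the intervals overlap. With 1 library per condition, no replicate could be left out, and no result rests on a test. No paired analysis was possible because each group had 1 library. Unknown read depth limits the comparison of heights between the lists.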
